A study of Homo sapiens with 12 samples.

Results

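The 8 genes described here are ASNS, PYCR1, ALDH18A1, PCK2, GPT2, BCAT1, GOT1 and GOT2. Except for PCK2, which makes phosphoenolpyruvate, they encode enzymes that make asparagine and proline or move amino groups between amino acids and keto acids. They were taken from the count table by symbol, and all 8 were found among its 23500 gene entries. RNA was sequenced from HEK293T cells, a human embryonic kidney line that does not grow when methionine is replaced by its precursor homocysteine, and from R1, a clone selected from HEK293T that grows without methionine. Each line was kept for 12 h in medium with methionine (+Met) or in medium with homocysteine in its place (-Met+Hcy), with 3 libraries in each of the 4 groups. R1 is 1 clone, so its difference from HEK293T cannot be told apart from what sets any clone apart. The labels list HEK293T as the cell line of every library and name R1 in the titles.

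Asparagine synthetase (ASNS) moves the amide group of glutamine to aspartate. Proline is built from glutamate in steps catalysed by ALDH18A1, which makes pyrroline-5-carboxylate, and by the reductase PYCR1 in mitochondria. PCK2 makes phosphoenolpyruvate from oxaloacetate in mitochondria, and the transaminases GPT2 (alanine), BCAT1 (branched-chain amino acids, cytosolic) and GOT1 and GOT2 (aspartate, cytosolic and mitochondrial) exchange amino groups with glutamate. When amino acids run short, the transcription factor ATF4 and its partners of the C/EBP family switch on many amino acid genes, ASNS the best known of them, through the C/EBP-ATF composite element of their promoters.

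Library totals ran from 12664158 to 18771349 counts, so that even the lowest member, PCK2, had 103 or more counts in every library. Of the markers checked for the kidney line, VIM and CDH2 were present in all 12 libraries, but not evenly. CDH2 had 18.0 to 40.5 CPM (the count scaled to a library total of 1000000) in HEK293T and 68.3 to 122 CPM in R1 (log2 1.68 in +Met, adjusted p = 0.00110), and VIM had 641 to 733 CPM in HEK293T +Met and 305 to 362 CPM in HEK293T -Met+Hcy (log2 -1.35, adjusted p = 0.00323). Their part in the results was not tested. The other markers of the line, PAX2 and LHX1, were low in HEK293T (0.205 to 1.33 CPM) and higher in R1 (1.33 to 6.06 CPM). Of the markers of other cells, KRT5 and KRT14 were at 0 in all 12 libraries, PTPRC and ALB stayed under 1 CPM, and COL1A1 lay between 8.22 and 39.8 CPM. COL1A1 lay at 13.0 CPM or more in R1 and at 18.7 CPM or less in HEK293T, overlapping only through replicate 3 of R1 -Met+Hcy, and its part in the results was not tested. In such bulk RNA, fewer cells of a type and less RNA per cell cannot be told apart. The sources used here do not say whether the libraries of a group came from separate cultures, so p-values measure only the spread between these libraries. Replicate 3 of R1 -Met+Hcy stood apart: it detected 13936 genes against 16216 to 17065 in the other 11 libraries. Its deviation from the other libraries of its group ran against GC content (Spearman rho = -0.74 over 11043 genes, against -0.34 to 0.73 for the other libraries).

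**Figure D1:**
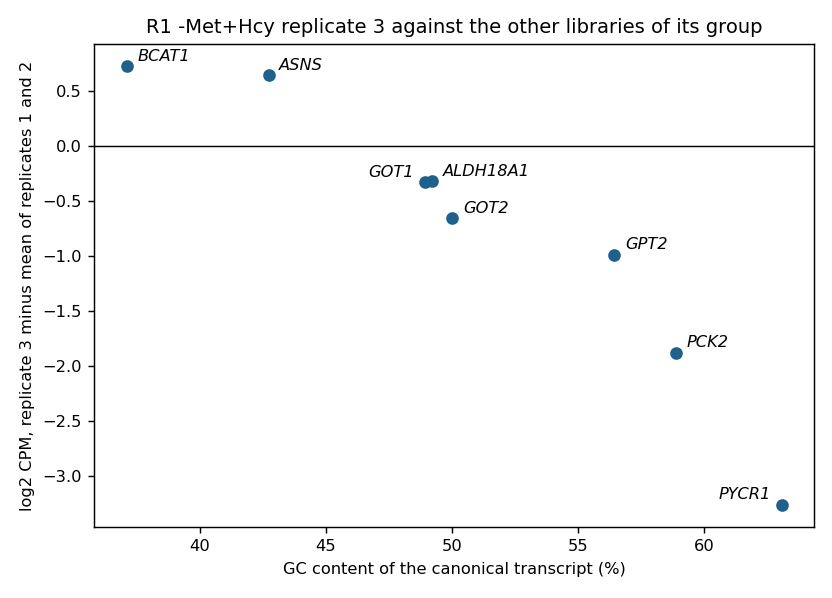
Log2 CPM of each of the 8 genes in replicate 3 of R1 -Met+Hcy minus the mean of replicates 1 and 2 (y axis) against the GC content of the canonical transcript in percent (x axis). BCAT1 and ASNS, with 37.1% and 42.7% GC, lie above 0, and PYCR1, with 63.1% GC, lies lowest at -3.26.

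The 8 genes followed this slope. In replicate 3, BCAT1 (37.1% GC) was 0.73 and ASNS (42.7% GC) 0.65 above the mean of replicates 1 and 2 on the log2 scale. GPT2 (56.4% GC) was at -0.99, PCK2 (58.9% GC) at -1.88 and PYCR1 (63.1% GC) at -3.26 against that mean. Results that rest on this library are therefore given with it and without it. Since all groups share 1 estimate of the spread, it also widened the intervals of comparisons that do not contain it.

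To show the promoters behind the comparison, the RefSeq windows (GRCh38.p14, 250 bases before to 50 after a start) of the members were searched on both strands for the C/EBP-ATF composite element, TGATGNAAN, and for the E-box, CACGTG. ASNS, PCK2, ALDH18A1, GOT1, GOT2 and BCAT1 matched an entry, 6 of the 8 members, with 11 windows in all, since BCAT1 has 5 starts and ASNS 2. The composite element was present in 3.61% and the E-box in 7.26% of all 35116 windows. Of the 11 windows, 3 held the composite element (1 each of ASNS, BCAT1 and GOT1) and 2 the E-box (ALDH18A1 and the same window of BCAT1). The other 4 windows of BCAT1 and the other window of ASNS held neither, and overlapping windows of a gene share bases. In the windows printed here the matches are in capitals, on the strand of the gene.
This ASNS window (chr7:97872359-97872658, minus strand) holds the composite element 68 bases before the start.
ASNS: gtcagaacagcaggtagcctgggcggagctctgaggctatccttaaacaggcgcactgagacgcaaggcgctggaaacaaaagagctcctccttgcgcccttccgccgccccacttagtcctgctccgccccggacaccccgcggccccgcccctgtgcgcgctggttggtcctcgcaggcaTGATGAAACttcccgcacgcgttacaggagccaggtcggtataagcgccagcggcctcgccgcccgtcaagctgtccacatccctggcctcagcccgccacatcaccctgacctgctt
This BCAT1 window (chr12:24949052-24949351, minus strand) holds it 48 bases before the start and an E-box 15 bases after it.
BCAT1: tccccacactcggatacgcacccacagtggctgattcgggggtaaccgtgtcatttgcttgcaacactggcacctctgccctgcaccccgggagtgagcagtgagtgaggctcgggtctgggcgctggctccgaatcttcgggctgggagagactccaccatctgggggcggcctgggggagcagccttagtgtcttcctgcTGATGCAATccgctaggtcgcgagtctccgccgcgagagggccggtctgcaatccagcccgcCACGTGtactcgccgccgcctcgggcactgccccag
The GOT1 window (chr10:99430575-99430874, minus strand) holds it 199 bases before the start, on the opposite strand.
GOT1: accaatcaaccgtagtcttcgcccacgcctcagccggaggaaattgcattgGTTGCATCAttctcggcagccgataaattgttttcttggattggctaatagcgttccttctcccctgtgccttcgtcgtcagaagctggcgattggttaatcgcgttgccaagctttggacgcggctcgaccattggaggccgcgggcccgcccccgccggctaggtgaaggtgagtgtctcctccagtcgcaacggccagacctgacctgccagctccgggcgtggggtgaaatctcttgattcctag
The ALDH18A1 window (chr10:95656662-95656961, minus strand) holds only an E-box, 136 bases before the start.
ALDH18A1: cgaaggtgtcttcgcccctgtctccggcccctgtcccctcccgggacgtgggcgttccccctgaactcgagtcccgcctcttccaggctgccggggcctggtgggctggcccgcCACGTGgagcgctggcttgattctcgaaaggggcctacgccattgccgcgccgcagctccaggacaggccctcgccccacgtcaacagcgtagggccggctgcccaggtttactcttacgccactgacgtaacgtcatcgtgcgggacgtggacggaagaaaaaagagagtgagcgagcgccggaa
Neither motif was found in the windows of PCK2 and GOT2. A match describes letters and shows no binding.

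The first comparison asked what homocysteine medium did to these genes in the line that depends on methionine. ASNS and GPT2 rose more than 2-fold, PCK2 and BCAT1 had fitted folds of 1.63 and 1.55 that did not pass the test with all 12 libraries, and the log2 fold changes of ALDH18A1, PYCR1, GOT1 and GOT2 lay between -0.16 and 0.34. Calls needed a change of more than 2-fold, a log2 value beyond 1 or -1, together with an adjusted p under 0.05 (edgeR's quasi-likelihood test, Benjamini-Hochberg over 17162 genes). In this way 2 of the 8 members were called higher and 0 lower, against 3.04% of all genes tested called higher. The median log2 fold change was 0.48 over the 8 members and 0.03 over all genes.

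**Figure D2:**
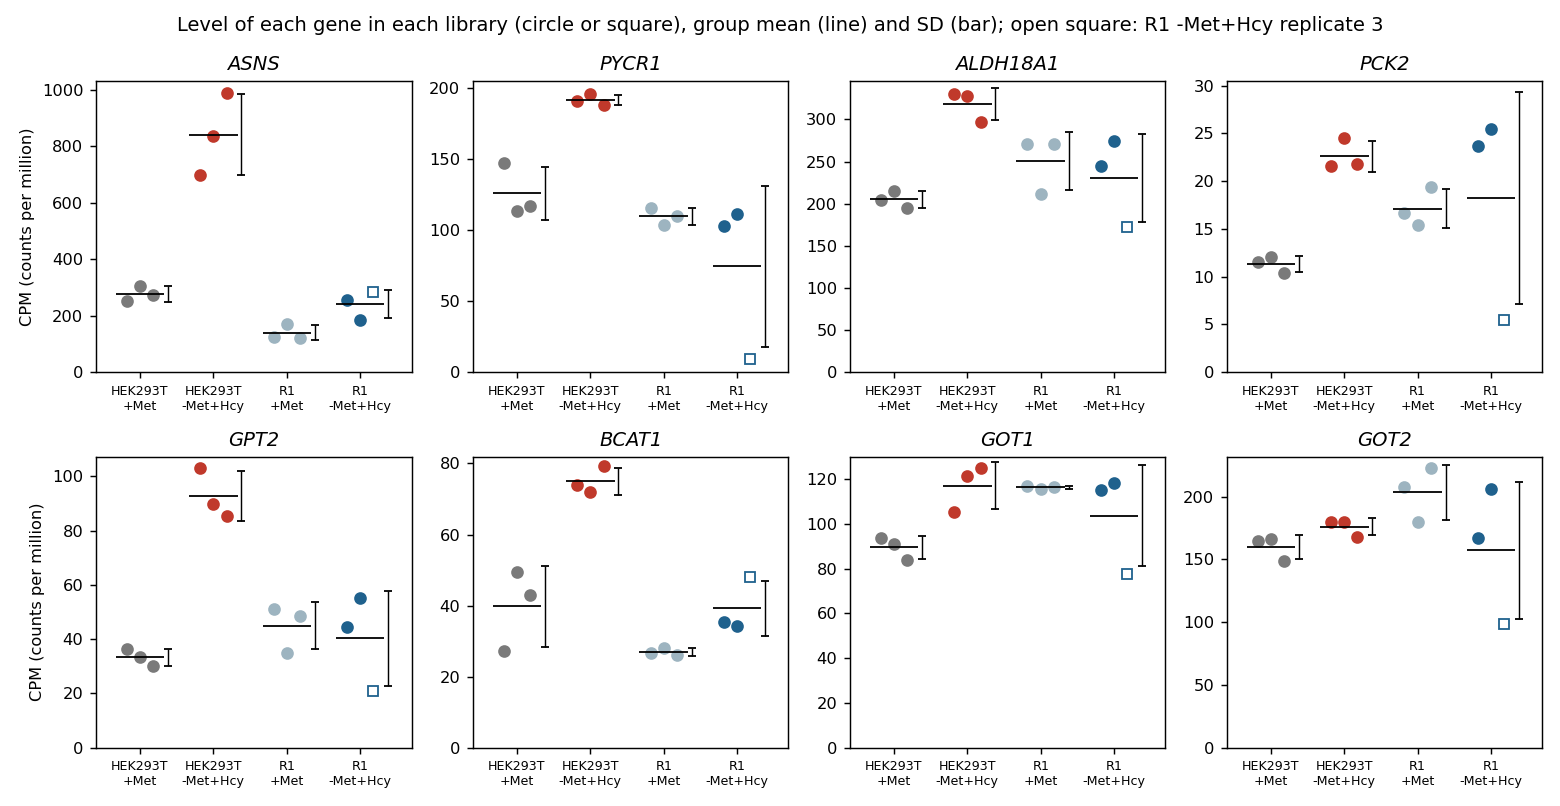
CPM of the 8 genes in each library (circles, with the open square for replicate 3 of R1 -Met+Hcy), with the group mean (line) and SD (bar, n = 3 libraries); the y axes start at 0. In HEK293T every -Met+Hcy library lies above every +Met library in all 8 panels, and ASNS reaches 988 CPM.

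ASNS (ENSG00000070669, chr7:97851677-97872542, minus strand, GRCh38) had 251, 306 and 272 CPM in the 3 HEK293T +Met libraries and 699.9, 836 and 988 CPM in -Met+Hcy. The 2 groups were far apart, with the lowest -Met+Hcy library (699.9) well over the highest +Met library (306). The fitted change was 2.50-fold (log2 1.32, SE 0.25, 95% interval 0.77 to 1.88, adjusted p = 0.0107). ASNS was also the most abundant member per length in HEK293T +Met, at 116 ± 11.8 CPM per kb of canonical transcript (SD, n = 3), against 66.0 ± 4.08 for GOT2, 61.2 ± 2.98 for ALDH18A1, 55.5 ± 8.17 for PYCR1 and 45.3 ± 2.55 for GOT1. GPT2, PCK2 and BCAT1 were lower, at 8.34 ± 0.768, 5.21 ± 0.39 and 4.27 ± 1.23 CPM per kb. The value of PCK2 is that of 1 of its 2 entries with identical counts, so its place beside GPT2 is uncertain.

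GPT2 (ENSG00000166123, chr16:46884362-46931289, plus strand), the mitochondrial alanine transaminase, had 36.2, 33.5 and 30.1 CPM in +Met against 103, 89.8 and 85.5 CPM in -Met+Hcy. Its groups were as clearly separated as those of ASNS. The fitted change was 2.27-fold (log2 1.18, SE 0.26, 95% interval 0.62 to 1.74, adjusted p = 0.0190).

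BCAT1 (ENSG00000060982, chr12:24810024-24949101, minus strand) had 27.1, 49.3 and 42.9 CPM in +Met against 73.9, 71.9 and 79.2 CPM in -Met+Hcy. Its +Met libraries were spread widely, with replicate 1 the lowest, but none reached the -Met+Hcy libraries. The deviation of this replicate from its group rose with GC content (Spearman rho = 0.54), and its part in the low value of BCAT1, a gene of low GC, was not tested. The fitted log2 fold change of BCAT1 was 0.63 (SE 0.25, adjusted p = 0.152), and 0.63 (SE 0.18, adjusted p = 0.0190) without replicate 3 of R1 -Met+Hcy. With any 1 library left out it lay between 0.43 and 0.78.

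PCK2 (ENSG00000100889, chr14:24094053-24110598, plus strand) had 11.6, 12.1 and 10.4 CPM in +Met against 21.6, 24.5 and 21.8 CPM in -Met+Hcy. The symbol has a second entry, ENSG00000285241, with identical counts in every library, so reads were divided between copies and the level is that of 1 entry. Its groups were narrow and did not overlap, and the log2 fold change was 0.70 (SE 0.375, adjusted p = 0.294). Without replicate 3 of R1 -Met+Hcy it was 0.70 (SE 0.13, adjusted p = 0.00219), the same change with a smaller error.

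The genes of proline synthesis had smaller fitted changes. ALDH18A1 (ENSG00000059573, chr10:95605941-95656711, minus strand) had 205, 215 and 195 CPM in +Met against 331, 328 and 296 CPM in -Met+Hcy, with a log2 fold change of 0.34 (SE 0.16, adjusted p = 0.247). PYCR1 (ENSG00000183010, chr17:81932384-81942412, minus strand) had 147, 113 and 117 CPM in +Met against 191, 196 and 188 CPM in -Met+Hcy, with 0.31 (SE 0.54, adjusted p = 0.787). Neither passed without replicate 3 of R1 -Met+Hcy (adjusted p = 0.0614 and 0.109).

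The aspartate transaminases had the smallest values. GOT1 (ENSG00000120053, chr10:99396870-99430624, minus strand) had 93.7, 91.1 and 84.0 CPM in +Met against 105, 121 and 125 CPM in -Met+Hcy, with a log2 fold change of 0.10 (SE 0.17, adjusted p = 0.784). GOT2 (ENSG00000125166, chr16:58707131-58734342, minus strand) had 165, 166 and 148 CPM in +Met against 180.1, 179.9 and 168 CPM in -Met+Hcy, with -0.16 (SE 0.20, adjusted p = 0.689). GOT2 was thus higher in CPM and lower after scaling.

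This follows from the scaling. In CPM all 8 members were higher in every -Met+Hcy library, but so were 38.6% of all genes tested. The TMM factors of the HEK293T +Met libraries (0.828 to 0.882) lay under those of the other 9 (0.930 to 1.12), and scaling by column sums in place of TMM moved the median of all genes by 0.29 on the log2 scale. After TMM scaling, 5 members (ASNS, GPT2, BCAT1, PCK2 and ALDH18A1) remained higher in every -Met+Hcy library, against 24.7% of all genes, and GOT2 was lower in every one. The direction of GOT2 turned to 0.14 with column sums.

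The calls in HEK293T were close to the threshold. Leaving out any 1 of the 6 HEK293T libraries left 0 or 1 of the 8 members called, with log2 fold changes of ASNS between 1.17 and 1.47 and of GPT2 between 1.12 and 1.27. Without replicate 3 of R1 -Met+Hcy, ASNS, GPT2, PCK2 and BCAT1 passed an adjusted p of 0.05, 4 of 8 against 15.2% of all genes passing in this direction.

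**Figure D3:**
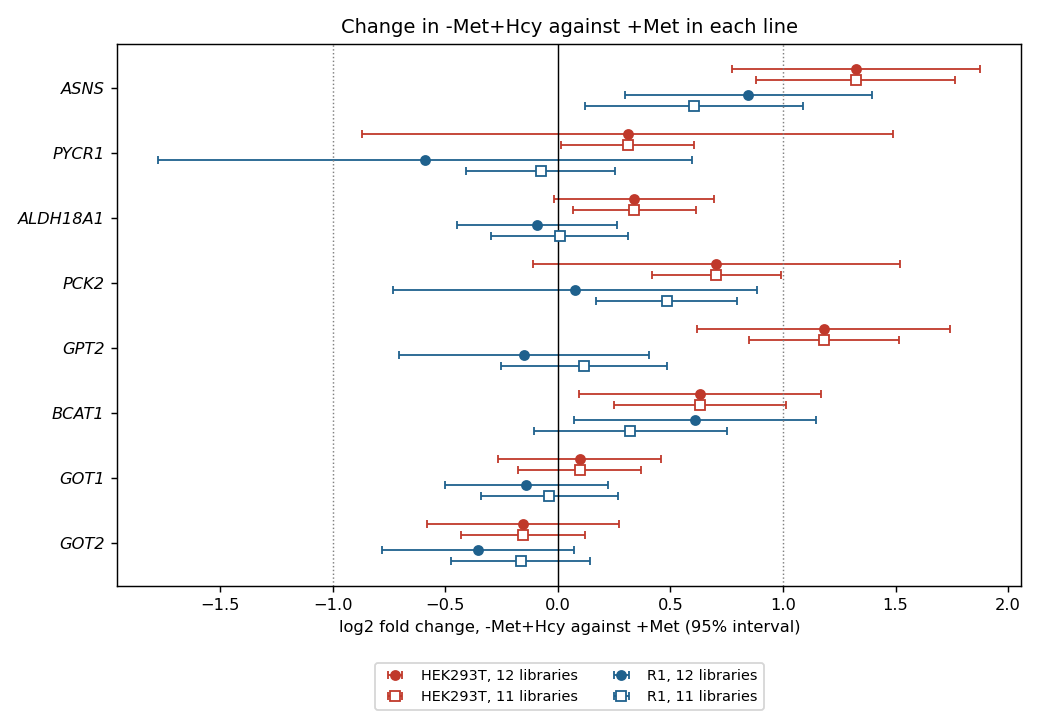
Log2 fold change of -Met+Hcy against +Met for the 8 genes in HEK293T (red) and R1 (blue), with 95% intervals, from the fit of 12 libraries (filled circles) and of the 11 libraries without replicate 3 of R1 -Met+Hcy (open squares); dotted lines mark -1 and 1. ASNS and GPT2 of HEK293T lie above 1, no gene of R1 does, and the interval of PYCR1 is widest with 12 libraries.

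The second comparison asked the same of R1. In R1, 0 of 8 members were called in either direction (edgeR, and also 0 with DESeq2), against 0.00583% of all genes. At an unadjusted p under 0.05 (edgeR), 2 of 8 passed, against 1336 of all 17162 genes. The median log2 fold change of the members was -0.12, against -0.02 over all genes.

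ASNS had 126, 171 and 122 CPM in R1 +Met and 254, 186 and 283 CPM in R1 -Met+Hcy. The 2 media did not overlap, although the highest +Met library (171) came near the lowest -Met+Hcy library (186). The log2 fold change was 0.85 (SE 0.25, 95% interval 0.30 to 1.39, adjusted p = 0.622), and 0.60 (SE 0.22, adjusted p = 0.588) without replicate 3, which was the highest library.

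BCAT1 had 26.6, 28.1 and 26.1 CPM in +Met against 35.4, 34.2 and 48.2 CPM in -Met+Hcy, with a log2 fold change of 0.61 (SE 0.25, adjusted p = 0.622). Replicate 3 was again the highest library, and without it the value was 0.32 (SE 0.20, adjusted p = 0.815). ASNS and BCAT1 were the 2 members higher in every -Met+Hcy library after TMM scaling, against 4.89% of all genes.

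GPT2 had 51.3, 35.0 and 48.6 CPM in +Met against 44.6, 55.3 and 20.8 CPM in -Met+Hcy, so the media overlapped. Its log2 fold change was -0.15 (95% interval -0.71 to 0.41), and 0.11 (-0.25 to 0.48) without replicate 3. PCK2 had 16.6, 15.4 and 19.3 CPM in +Met against 23.7, 25.5 and 5.49 CPM in -Met+Hcy, the last value being replicate 3. Its log2 fold change was 0.08 with that library and 0.48 (SE 0.14, adjusted p = 0.440) without it.

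PYCR1 showed the largest gap between replicates. It had 115, 104 and 110.1 CPM in R1 +Met and 103, 112 and 9.22 CPM in -Met+Hcy, so that replicate 2 lay in the range of +Met, replicate 1 just under it and replicate 3 far under it. The log2 fold change was -0.59 (SE 0.55) with replicate 3 and -0.08 (SE 0.15) without it. ALDH18A1 (270.2, 211 and 271 CPM in +Met, then 244, 274 and 173 CPM in -Met+Hcy), GOT1 (117, 116 and 117 CPM, then 115, 119 and 77.6 CPM) and GOT2 (208, 179.8 and 223 CPM, then 167, 206 and 98.4 CPM) overlapped between the media in the same way, with replicate 3 the lowest of all R1 libraries.

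The difference of the responses, R1 minus HEK293T, was tested in the same model. It was below 0 for all 8 members, with a median of -0.46 against -0.06 over all genes. In the edgeR test 0 of 8 passed, against 0.0583% of all genes called lower. At an unadjusted p under 0.05, 1 of 8 passed, against 1659 of all 17162 genes. GPT2 had the largest difference, a log2 value of -1.33 (SE 0.36, 95% interval -2.12 to -0.54, unadjusted p = 0.00310, adjusted p = 0.309). DESeq2 called it on the same libraries (-1.33, adjusted p = 0.0424). Without replicate 3 of R1 -Met+Hcy it was -1.07 (SE 0.23, adjusted p = 0.0411) and called, where 1.08% of all genes were called lower.

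For ASNS the difference was -0.48 (95% interval -1.25 to 0.29, adjusted p = 0.681), and -0.72 (-1.38 to -0.06, adjusted p = 0.258) without replicate 3. For BCAT1 it was -0.02 (-0.78 to 0.74). A smaller response of ASNS or BCAT1 in R1 was thus not detected, and the intervals allow differences in either direction for the 12 libraries. For PYCR1 the interval spanned -2.57 to 0.77, too wide to compare the lines.

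The third comparison set R1 against HEK293T with methionine present. ASNS was lower in the clone before any change of medium, at 122 to 171 CPM against 251 to 306 CPM, a fitted 0.398-fold (log2 -1.33, SE 0.25, 95% interval -1.88 to -0.77, adjusted p = 0.00706). It was the only member called, 1 of 8 against 2.95% of all genes called lower. With column sums in place of TMM it was -0.98 (adjusted p = 0.0109), short of the fold threshold.

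BCAT1 had 26.1 to 28.1 CPM in R1 and 27.1 to 49.3 CPM in HEK293T, which met at HEK293T replicate 1. Its log2 fold change of -0.91 (SE 0.25, adjusted p = 0.0384) passed the p but not the fold, so 2 of 8 members were lower by adjusted p alone, against 4.48% of all genes. PYCR1 was at -0.55 (SE 0.54, adjusted p = 0.566), and at -0.55 (SE 0.14, adjusted p = 0.00866) without replicate 3 of R1 -Met+Hcy, which made 3 of 8 by adjusted p alone against 15.7% of all genes. After TMM scaling ASNS, BCAT1 and PYCR1 were lower in every R1 library, against 20.7% of all genes, and PCK2 was higher in every one, against 22.2%.

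GPT2, the other gene called in HEK293T, did not share the lower level of ASNS in R1 +Met. It had 35.0 to 51.3 CPM in R1 against 30.1 to 36.2 CPM in HEK293T, with a log2 fold change of 0.07 (95% interval -0.48 to 0.63). The other members, PCK2 (0.24), ALDH18A1 (-0.06), GOT1 (0.02) and GOT2 (-0.01), had adjusted p of 0.741 or more. With column sums ALDH18A1 turned to 0.29 and GOT2 to 0.35.

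**Figure D4:**
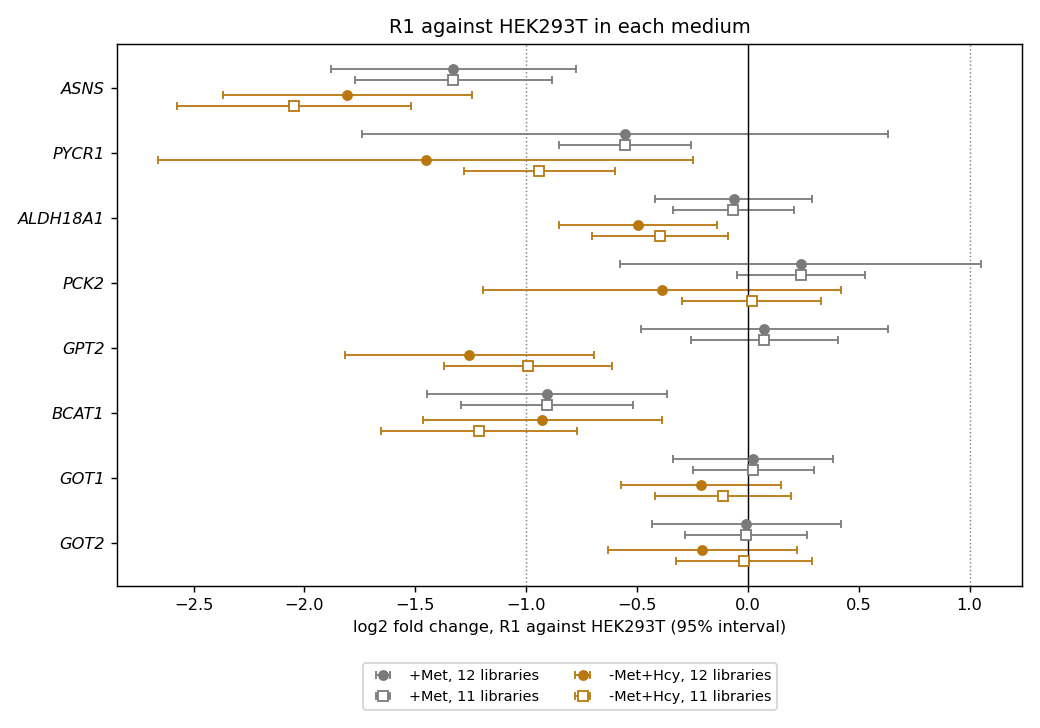
Log2 fold change of R1 against HEK293T for the 8 genes in +Met (grey) and -Met+Hcy (ochre), with 95% intervals, from 12 libraries (filled circles) and 11 libraries (open squares); dotted lines mark -1 and 1. ASNS lies under -1 in both media, while GPT2 is near 0 in +Met and at -1.26 in -Met+Hcy.

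The fourth comparison set the lines against each other in -Met+Hcy. All 8 members had a fitted value below 0, with a median of -0.71 against -0.01 over all genes, and 2 of 8 were called lower, against 4.66% of all genes. ASNS was at 0.286-fold (log2 -1.81, SE 0.26, 95% interval -2.37 to -1.25, adjusted p = 0.00104), with 186 to 283 CPM in R1 and 699.9 to 988 CPM in HEK293T. The 4 groups thus stood in the order HEK293T -Met+Hcy, HEK293T +Met, R1 -Met+Hcy, R1 +Met by mean CPM of ASNS, with only HEK293T +Met and R1 -Met+Hcy overlapping among neighbours. After TMM scaling that overlap rested on replicate 3 of R1 -Met+Hcy, at 305 against 303 to 347 in HEK293T +Met. Replicates 1 and 2 were at 228 and 166.

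GPT2 was at 0.419-fold (log2 -1.26, SE 0.26, adjusted p = 0.00764), with 20.8 to 55.3 CPM in R1 and 85.5 to 103 CPM in HEK293T. Without replicate 3 of R1 -Met+Hcy it was -0.99 (SE 0.17, adjusted p = 0.00115), just short of the fold threshold. BCAT1 was at -0.93 (SE 0.25, adjusted p = 0.0274), which made 3 of 8 lower by adjusted p alone, against 6.76% of all genes. Without replicate 3 BCAT1 was at -1.21 (SE 0.20, adjusted p = 0.000862) and called.

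PYCR1 was at -1.45 (SE 0.55, adjusted p = 0.102), a value that moves with replicate 3. DESeq2 called it on the same libraries (-1.46, adjusted p = 0.0370). Without replicate 3 the edgeR value of PYCR1 was -0.94 (SE 0.16, adjusted p = 0.000817), with 103 and 112 CPM in R1 and 188 to 196 CPM in HEK293T. With the GC and length trend also removed it was -1.175 (SE 0.11, adjusted p = 3.8e-06) and called. Without replicate 3 and with no trend removed, ASNS, GPT2, BCAT1 and PYCR1 passed the adjusted p, 4 of 8 against 14.6% of all genes. With all 12 libraries ALDH18A1 had -0.50 (adjusted p = 0.0636), while PCK2, GOT1 and GOT2 had adjusted p of 0.425 or more. After TMM scaling ASNS, GPT2, BCAT1, PYCR1 and ALDH18A1 were lower in every R1 library, against 18.9% of all genes.

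Ratios within a library do not depend on its scaling, so each transaminase was set beside its paralog for the same reaction. The ratio of BCAT1 to the mitochondrial BCAT2 was 0.635, 1.44 and 1.16 in HEK293T +Met and 2.41, 2.44 and 2.97 in -Met+Hcy. Every -Met+Hcy library lay above every +Met library. In R1 it was 0.713, 0.802 and 0.718 in +Met and 1.31, 1.04 and 8.69 in -Met+Hcy, the last in replicate 3. BCAT2 itself had a log2 fold change of -0.69 (SE 0.40, adjusted p = 0.337) in HEK293T. Without replicate 3 of R1 -Met+Hcy it was -0.69 (SE 0.13, adjusted p = 0.0024), passing the p but not the fold.

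The ratio of GPT2 to the cytosolic GPT was 13.2, 8.29 and 12.3 in HEK293T +Met and 16.2, 38.2 and 36.1 in -Met+Hcy. GPT gave only 24 to 106 counts a library, so this ratio carries the counting error of GPT. In R1 it stayed at 8.59 to 8.91 in +Met, against 7.92 to 16.3 in -Met+Hcy.

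BCAT1 (37.1% GC) and BCAT2 (60.4% GC) differ in GC content, and of the 3 ratios theirs moved the most in replicate 3 of R1 -Met+Hcy. The ratio of GOT1 to GOT2 lay between 0.523 and 0.789 in all 12 libraries.

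**Figure D5:**
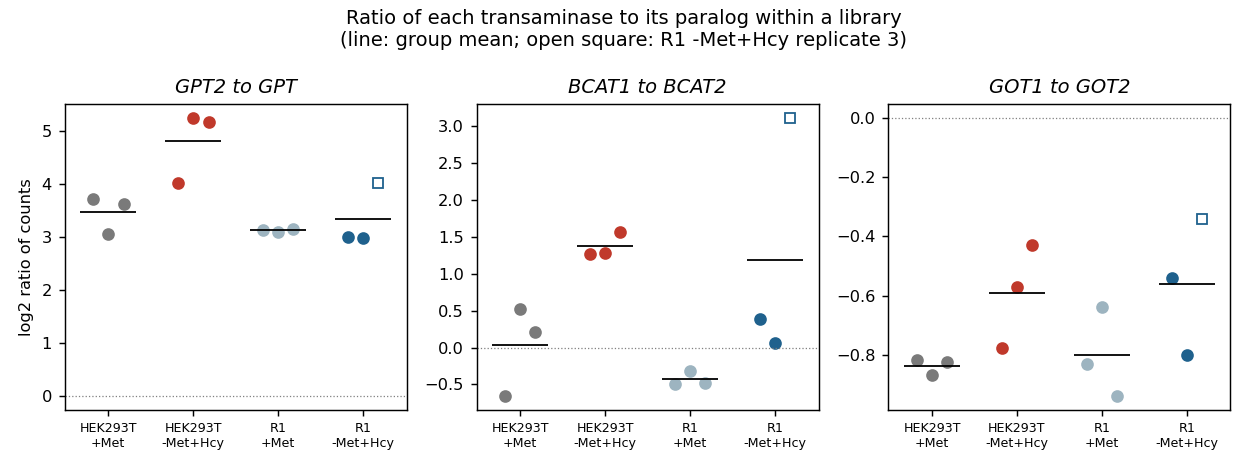
Log2 ratio of counts of GPT2 to GPT, BCAT1 to BCAT2 and GOT1 to GOT2 in each library (circles, open square for replicate 3 of R1 -Met+Hcy), with group means (lines). In HEK293T the BCAT1 and GPT2 ratios are higher in every -Met+Hcy library than in every +Met library, and the highest BCAT1 ratio is that of the open square.

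Partner enzymes of these reactions were followed next. Of 17 paralogs and partners, 15 had enough counts to be tested, and 0 were called in any of the 5 comparisons (edgeR). At an unadjusted p under 0.05, between 0 and 2 of the 15 passed in each comparison, against 1336 to 5070 of all 17162 genes. DESeq2 was not used for them. SLC25A13, a mitochondrial aspartate-glutamate carrier, was lower in HEK293T -Met+Hcy by adjusted p alone (log2 -0.64, SE 0.17, adjusted p = 0.0388), 1 of 15 against 477 of all 17162 genes. ASRGL1, which splits asparagine, was higher in R1 +Met by adjusted p alone (0.93, SE 0.24, adjusted p = 0.0325), 1 of 15 against 976 of all 17162 genes. Without replicate 3 of R1 -Met+Hcy, 0 of the 15 were called as well. At an unadjusted p under 0.05, 0 to 5 passed in each comparison of that fit, against 1205 to 7413 of all 17069 genes. By adjusted p alone, 1 (GLUD1) was higher and 2 (BCAT2 and SLC25A13) were lower in HEK293T -Met+Hcy, against 2593 and 2138 of all genes.

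Glutamate and glutamine are the substrates of most of these enzymes. In HEK293T, GLUD1 (glutamate dehydrogenase) had a log2 fold change of 0.36 (adjusted p = 0.193), GLUL (glutamine synthetase) 0.22 (0.432) and OAT, which links ornithine to proline, -0.04 (0.934). Without replicate 3 of R1 -Met+Hcy the adjusted p was 0.0488 for GLUD1, 0.172 for GLUL and 0.889 for OAT. The carrier SLC25A12 had 0.09 (0.873) and pyruvate carboxylase, PC, 0.42 (0.597).
Several partners were low or absent. PCK1, the cytosolic isoform of PCK2, had 0 to 5 counts a library, PRODH, which begins proline breakdown, 0 to 20, and ASPG, an asparaginase, 0 to 6. GOT1L1 was at 0 in all 12 libraries, and a count of 0 allows up to 3 counts in a library. ALDH4A1, the next step of proline breakdown, had 78 to 171 counts and 0 in replicate 3 of R1 -Met+Hcy, and PYCR3 170 to 309 and 4 in that library.

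Around the members, 7 pathway lists were counted. Among aspartate and asparagine handling (7 of 11 tested) and proline and ornithine (8 of 9 tested), 0 genes were called in any comparison, with medians in HEK293T of -0.56 and -0.10. The same held for branched-chain keto acid oxidation (5 of 5 tested, median -0.10). At an unadjusted p under 0.05, 3, 1 and 1 genes of these lists passed in HEK293T, against 3838 of all 17162 genes. In the other 4 comparisons 0 to 2 of each did, against 1336 to 5070 of all genes. Without replicate 3 of R1 -Met+Hcy, 0 genes of these lists were called as well. By adjusted p alone, 4 of 7, 1 of 8 and 1 of 5 were lower in HEK293T -Met+Hcy in that fit. None was higher, and 2138 of all 17069 genes were lower.
Of the 8 other transaminases tested, ABAT, which degrades GABA, was called higher in R1 in +Met (log2 1.30, SE 0.28, adjusted p = 0.0139) and in -Met+Hcy (1.21, SE 0.28, adjusted p = 0.0146), 1 of 8 against 4.71% and 5.29% of all genes. The kynurenine aminotransferase KYAT3 was called lower in HEK293T -Met+Hcy once replicate 3 of R1 -Met+Hcy was left out (-1.01, adjusted p = 0.00820), 1 of 8 against 3.56% of all genes, and KYAT1 lower in R1 +Met in the same fit (-1.36, adjusted p = 0.00266), 1 of 8 against 5.28%. Of 5 glutamine and glutamate genes, GLUD2 was called higher in HEK293T -Met+Hcy (1.66, SE 0.37, adjusted p = 0.0201), at 1.22 to 5.96 CPM, 1 of 5 against 3.04% of all genes. GLUD2 was also called lower in R1 -Met+Hcy than in HEK293T -Met+Hcy (-1.37, adjusted p = 0.0257), 1 of 5 against 4.66%. It is nearly identical to GLUD1 in sequence and has 2 entries with identical counts, so its value is uncertain.

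Of 7 genes of phosphoenolpyruvate, pyruvate and malate, 2 were called lower in HEK293T -Met+Hcy, against 1.59% of all genes. The mitochondrial malic enzyme ME2 fell from 73.1 to 80.2 CPM in +Met to 29.9 to 32.3 CPM (log2 -1.57, SE 0.34, adjusted p = 0.0186), and MPC2, a subunit of the mitochondrial pyruvate carrier, fell by 1.01 on the log2 scale (adjusted p = 0.0432). PCK2 and ME2 thus lay on opposite sides of 0. ME2 was higher in R1 than in HEK293T in -Met+Hcy (1.84, SE 0.35, adjusted p = 0.00455), with 70.7 and 80.1 CPM in R1 replicates 1 and 2 and 177 CPM in replicate 3. It was the only gene of the 7 called higher there, against 5.29% of all genes. Without that library it was 1.16 (SE 0.14, adjusted p = 9.5e-05). The difference of the ME2 responses was 1.88 (SE 0.48, adjusted p = 0.258), and 1.20 (SE 0.19, adjusted p = 0.0100) without replicate 3. ME1, the cytosolic enzyme, was called lower in R1 +Met (-1.29, SE 0.21, adjusted p = 0.00289), 1 of 7 against 2.95% of all genes.

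Of these lists the amino acid response regulators had the highest median in HEK293T, 1.48 over 6 genes. In HEK293T -Met+Hcy 3 of the 6 were called higher, ATF3 (2.45, SE 0.29, adjusted p = 0.000958), CEBPG (2.00, SE 0.18, adjusted p = 0.000226) and DDIT3 (1.39, SE 0.26, adjusted p = 0.00932), against 3.04% of all genes. Without replicate 3 of R1 -Met+Hcy, CEBPB and TRIB3 joined them, 5 of 6 against 6.76% of all genes called higher in that fit (log2 1.58 and 1.13, adjusted p = 4.6e-05 and 0.000359). ATF4 mRNA itself had 0.34 (SE 0.17, adjusted p = 0.265). CEBPG had 22.8 to 31.4 CPM in HEK293T +Met and 119 to 132 CPM in -Met+Hcy, and in R1 12.5 to 16.8 CPM in +Met against 23.0 to 26.7 CPM in -Met+Hcy.

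By CPM, CEBPG had the group order of ASNS, with HEK293T +Met and R1 -Met+Hcy overlapping and R1 +Met lowest. This overlap is in CPM per column sum, which the lower TMM factors of HEK293T +Met affect. ATF3, CEBPB and CEBPG were called lower in R1 than in HEK293T in -Met+Hcy, 3 of 6 against 4.66% of all genes, and ATF3 and CEBPG in +Met, 2 of 6 against 2.95%. CEBPB was also called lower in +Met without replicate 3 of R1 -Met+Hcy (-1.13, adjusted p = 0.000285), 3 of 6 against 5.28% of all genes. By adjusted p alone, 4 of 6 were lower and 1 higher in R1 +Met in that fit, against 2673 and 2909 of all 17069 genes. The higher one was TRIB3 (0.55, adjusted p = 0.0178), and DDIT3 had -0.10 (adjusted p = 0.756). In R1 0 of 6 were called between the media (edgeR). At an unadjusted p under 0.05, 3 of 6 passed, against 1336 of all 17162 genes. Among these 3 was CEBPG at 0.76 (SE 0.17, adjusted p = 0.622). The difference of the responses passed for 0 of 6 with all libraries, with 2 at an unadjusted p under 0.05, against 1659 of all 17162 genes. Without replicate 3 of R1 -Met+Hcy it passed for ATF3 (-1.93, adjusted p = 0.0208), CEBPG (-1.27, adjusted p = 0.0153) and TRIB3 (-1.07, adjusted p = 0.0423), 3 of 6 against 1.08% of all genes called lower.

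The genes most like each member were sought by Pearson r of log2 CPM over 12 libraries, among 10957 genes with a mean log2 CPM of 2 or more. The points share their libraries, depth and scaling, and r is a description. For ASNS they were HOXD13 (0.985), NAP1L3 (0.984) and RIPK2 (0.983), and for BCAT1 TES (0.984), PLCB1 (0.974) and IBTK (0.971). These values were as high over the 11 libraries without replicate 3 of R1 -Met+Hcy, 0.992 for HOXD13 and 0.995 for TES. HASPIN was nearest to both GPT2 (0.971) and ALDH18A1 (0.978), followed by SNX18 and CSNK1E for GPT2 and by IER2 and GCC1 for ALDH18A1.
For PYCR1 the nearest were TRMT61A (0.996), SWSAP1 and NR1H2, and for PCK2 LRRC41 (0.978), CBX8 (0.969) and GDPGP1. Over the 11 libraries without replicate 3 of R1 -Met+Hcy, r was 0.9685 for TRMT61A, 0.959 for LRRC41 and 0.909 for CBX8. For GOT2 the nearest were MAZ (0.972), MTMR14 and MCM2, which fell to 0.873 for MAZ over 11 libraries. GOT1 had the weakest likeness, BRI3 (0.896), POLDIP2 and PSMD9, at 0.778 for BRI3 over 11 libraries.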

How the data were processed

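The authors sequenced total RNA, quantified reads with kallisto 0.48.0 against GRCh38 (per the labels), and deposited 1 whole-number estimated count per Ensembl gene, the total over its transcripts. The deposited expected counts of 12 libraries were used, 3 a group. No column was left unmapped. Entries without a symbol held 0.346% to 0.402% of the counts and stayed in the table.

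Genes with a summed count of 10 or more (17162 of 23500) were fitted with edgeR 4.0.16 (R 4.3.3, quasi-likelihood, TMM, 4 group means, 8 residual degrees of freedom), with Benjamini-Hochberg adjustment. Intervals are at 95%. CPM are per column sum. Log2 CPM used a prior count of 2. The test was run on simulated data first, with 200 genes changed. Alternatives were DESeq2 1.42.0, RLE, other filters, a replicate block, robust estimation, removal of GC and length trends, 6 libraries only, adjusted p alone and leaving out each library. Column sums, 1 entry per identical copies and trend removal without replicate 3 of R1 -Met+Hcy were added after seeing the data. The paper names DESeq2 with the same summed-count filter and thresholds, so the DESeq2 alternative is the setting nearest to the authors' own test. It was run in a version other than theirs, and their model formula is not given. Between the media it called 28 genes in R1 and 1156 in HEK293T, fewer in each line than the paper reports. The reason was not tested. GC content and length came from the GENCODE annotation of GRCh38.

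The members, lists and tests were chosen with earlier results of these data known. The 8 members, 17 paralogs and partners, every list gene called in a comparison and the 3 genes most like each member are named by rule, except that some of these partners are not reported here. KYAT1 and KYAT3 were chosen after their values were seen.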

Additional observations from a re-analysis of the deposited data

How the results depend on the processing

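With 3 libraries a group, and 1 library standing apart, the intervals of the members were wide. Of 59 counts of members called under another setting, 51 stayed within 1.5 times of the reported count, and of 472 values of members 446 kept their direction and their side of the threshold. No member was called between the media in R1 under any alternative. The replicate block gave 2 members called in HEK293T (all genes 517 against 794), 0 in R1, 0 for the difference of responses, 1 for the lines in +Met and 2 in -Met+Hcy, all as reported. It turned PCK2 in R1 to -0.0142. Deviations of same-numbered libraries from their group means correlated with r between -0.50 and 0.48. With 3 libraries a group these values cannot tell whether same-numbered libraries shared a batch, and they were not taken as pairs.

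For the difference of responses the count rose from 0 to 1, GPT2, with DESeq2, with the GC and length trend removed, and with that trend removed and replicate 3 of R1 -Met+Hcy left out. All genes called rose from 10 to 171, 209 and 509. For the lines in +Met, 1 became 2 with adjusted p alone and 0 with column sums (all genes 1315 and 1806). For the lines in -Met+Hcy, 2 became 1 with the 6 libraries only (all genes 491 against 1708) and 3 with DESeq2, where PYCR1 joined (all genes 2192). With the trend removed, with or without replicate 3, the count became 4, as PYCR1 and BCAT1 joined (all genes 2204 and 2274). For HEK293T all genes called came to 1899 with 6 libraries and 1762 without replicate 3 of R1 -Met+Hcy, against 794.

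Reversed signs, none of them of a called value, were GOT2 in HEK293T to 0.14 with column sums, GPT2 in R1 to 0.12 with the trend removed and 0.0949 also without replicate 3, and GPT2 between the lines in +Met to -0.10 and -0.10 likewise. Between the lines in +Met, ALDH18A1 turned to 0.29 with column sums and GOT2 to 0.35, and GOT2 to 0.0139 with 6 libraries, 0.0128 with the trend removed and 0.0131 also without replicate 3. With the trend removed and that library left out, GOT2 turned to 0.0366 for the difference, and GOT1 to 0.0207 and GOT2 to 0.0497 between the lines in -Met+Hcy.

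With 1 library left out, members called ranged from 0 to 2 in HEK293T, 0 to 0 in R1, 0 to 1 for the difference, 1 to 2 in +Met (BCAT1 joined without HEK293T +Met replicate 1) and 2 to 2 in -Met+Hcy. Values that changed sign in such fits were, in R1, PCK2 (-0.22 to 0.48), ALDH18A1 (-0.19 to 0.0069) and GPT2 (-0.41 to 0.11). For the difference it was BCAT1 (-0.31 to 0.18). Between the lines in +Met they were ALDH18A1 (-0.11 to 0.0259), GPT2 (-0.0235 to 0.21), GOT1 (-0.0095 to 0.0757) and GOT2 (-0.0644 to 0.0544), and in -Met+Hcy PCK2 (-0.68 to 0.0167). The causes were not tested.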

Other observations

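Over the 12 libraries the pairs of members most alike in log2 CPM were ASNS with BCAT1 and ALDH18A1 with GPT2. ASNS and BCAT1 had a Pearson r of 0.951 (0.960 over the 11 libraries without replicate 3 of R1 -Met+Hcy), and ALDH18A1 and GPT2 0.962 (0.945). ASNS and PYCR1 had 0.294 over 12 libraries and 0.879 over 11, and GOT2 and PYCR1 0.818 and -0.02, so both values depend on that library. The libraries form 4 groups and the values are descriptions.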
